A study of Mus musculus with 34 samples.

Results

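The complement genes described here are C1qa, C1qb, C1qc, C4b, C3, C3ar1, C5ar1, Itgam and Serping1, which were chosen by name. All 9 symbols were found among the 55385 genes of the deposited tables, and all 9 passed the filter on low counts that left 17518 genes for testing. Messenger RNA was measured by poly(A) RNA sequencing in 34 libraries of hippocampus from mice aged 6 months, and the groups cross genotype with treatment. 5xFAD mice express mutant human genes of inherited Alzheimer's disease, including APP, from transgenes under the Thy1 promoter, which is active in neurons, and develop amyloid plaques. Dp16 mice carry an extra copy of a mouse chromosome segment that corresponds to much of the human chromosome trisomic in Down syndrome, and 5xFAD-Dp16 mice carry both. Wild-type (WT) mice were C57BL/6J. Every animal was dosed by oral gavage once a day over a month, either with 15 mg/kg tofacitinib, an inhibitor of Janus kinases, or with the 0.5% methylcellulose vehicle, here called sham. With tofacitinib there were 4 libraries of 5xFAD-Dp16, 5 of 5xFAD, 5 of Dp16 and 5 of WT. With sham there were 3 libraries of 5xFAD-Dp16, 4 of 5xFAD, 3 of Dp16 and 5 of WT, and both sexes were present in each group. The labels number the libraries as separate samples without naming animals or litters, so p-values measure the spread between these samples.

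Complement is a cascade of proteins that tag cells and debris for removal. In its classical route, C1q binds a target and starts the cleavage of C4 and C2 and then of C3, whose large fragment stays on the target while the small fragments C3a and C5a signal through receptors. In the brain C1q is made mainly by microglia and C4b by astrocytes and oligodendrocytes, and in mice C1q and C3 are known for tagging synapses that microglia then engulf through complement receptor 3, also around amyloid.

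Levels between genes were compared as RPKM (reads scaled to gene length and to library size), averaged over the 34 libraries. C1qa had 113 RPKM, C1qb 78.7 RPKM and C1qc 64.9 RPKM. C4b followed at 9.58 RPKM, Serping1 at 5.13 RPKM and Itgam at 2.83 RPKM. C3ar1 at 0.972 RPKM, C3 at 0.577 RPKM and C5ar1 at 0.568 RPKM were the lowest of the 9, and C5ar1 and C3 rested on 1 to 76 and 3 to 118 counts per library. All other levels below are CPM (counts scaled to library size with TMM, which leaves gene length aside) and are compared within a gene.

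In the GRCm38 build the C1q genes lie together on chromosome 4 between positions 136880129 and 136898803, in the order C1qb, C1qc and C1qa, all on the minus strand and with no other annotated gene reaching into them. None of the 9 genes lies on the chromosome that carries the Dp16 segment: C4b and C3 are on chromosome 17 (from 34728380 to 34743882 and from 57203970 to 57228136), Serping1 on chromosome 2 (84765387 to 84775444), C3ar1 on chromosome 6 (122847138 to 122856161), and C5ar1 and Itgam on chromosome 7 (16246743 to 16259540 and 128062640 to 128118491). Itgam overlaps the gene model Gm49368 on its own strand and C3 contains a microRNA, so some of their reads could be shared. C4b has a near-identical copy, C4a, which did not pass the filter, and reads that fit both copies leave the count of C4b uncertain.

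Start-site windows from RefSeq (GRCm38, from 250 bases before to 50 bases after the start) were available for 6 of the 9 genes. They are shown for the C1q genes with an entry, C1qb and C1qc, whose levels moved together. Itgam, which also moved with the transgenes, and C3, which did not pass there, are shown as well. The windows of C3ar1, which had the largest transgene estimate of the 9 genes, and of C5ar1 are not printed. Capitals mark GAGGAA or its reverse complement TTCCTC, the core searched for PU.1, a transcription factor of myeloid cells. The windows are chr4:136886151-136886450 (minus strand) for C1qb, chr4:136892865-136893164 (minus strand) for C1qc, chr7:128062390-128062689 (plus strand) for Itgam and chr17:57228087-57228386 (minus strand) for C3.
C1qb: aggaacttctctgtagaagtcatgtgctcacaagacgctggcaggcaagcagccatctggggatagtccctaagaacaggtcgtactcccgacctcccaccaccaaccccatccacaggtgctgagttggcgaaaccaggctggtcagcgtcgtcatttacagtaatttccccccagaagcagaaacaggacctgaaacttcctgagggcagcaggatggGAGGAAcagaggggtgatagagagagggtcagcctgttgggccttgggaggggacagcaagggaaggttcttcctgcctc
C1qc: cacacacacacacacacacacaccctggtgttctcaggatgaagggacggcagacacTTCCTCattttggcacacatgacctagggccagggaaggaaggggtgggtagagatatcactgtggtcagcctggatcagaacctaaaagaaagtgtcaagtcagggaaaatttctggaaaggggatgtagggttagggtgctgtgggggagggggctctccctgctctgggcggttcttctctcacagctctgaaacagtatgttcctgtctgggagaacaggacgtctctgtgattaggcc
Itgam: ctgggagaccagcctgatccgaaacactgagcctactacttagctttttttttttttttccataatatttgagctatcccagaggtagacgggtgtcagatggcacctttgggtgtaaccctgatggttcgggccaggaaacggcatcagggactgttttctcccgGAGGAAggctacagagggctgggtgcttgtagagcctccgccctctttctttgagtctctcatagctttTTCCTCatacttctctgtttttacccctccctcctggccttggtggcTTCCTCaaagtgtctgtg
C3: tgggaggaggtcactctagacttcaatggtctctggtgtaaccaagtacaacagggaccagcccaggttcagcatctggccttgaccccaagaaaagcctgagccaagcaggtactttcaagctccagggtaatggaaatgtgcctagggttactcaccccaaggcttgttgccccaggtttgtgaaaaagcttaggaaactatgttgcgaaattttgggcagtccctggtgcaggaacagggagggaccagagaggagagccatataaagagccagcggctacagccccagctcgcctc

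On either strand the core was present once in the window of C1qb, starting 30 bases before the start site, once in that of C1qc, 193 bases before it, and 3 times in that of Itgam. The windows of C3, C3ar1 and C5ar1 did not hold these letters. Of these genes C3ar1 moved with the transgenes, while C3 and C5ar1 did not pass there. A relation between the core and the response was not tested. The same letters were present in 28.3% of all 32851 RefSeq windows of this length. Motifs of JAK-STAT signalling, searched because tofacitinib inhibits Janus kinases, were TTCNNNGAA (gamma-activated sequence) and the interferon-stimulated response element. Neither was in any of the 6 windows, against 8.30% and 3.44% of all windows. A match or its absence describes these letters in this window and nothing more.

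Each library held between 14.9 and 21.1 M counts, with a median of 17.8 M, and the sex read from the counts matched the label in 34 of 34 libraries. Counts of Thy1, whose regulatory sequence drives the transgenes, were at least 967 CPM in the 16 libraries labelled with them and at most 934 CPM in the 18 without. The libraries express the neuronal markers of the hippocampus, but 3 of them stood apart by a low mean log2 CPM over 14 such markers, at 4.39 in WT tofacitinib library 3, 4.83 in 5xFAD-Dp16 sham library 4 and 4.98 in 5xFAD tofacitinib library 2, against a median of 6.54 and a next lowest of 6.04. In that order, the mean log2 CPM over 10 striatal markers was 6.15, 3.93 and 6.92, against a median of 3.29 over all libraries. Over 10 markers of thalamus and habenula it was 3.52, 5.44 and 6.71, against a median of 3.37. The 3 libraries thus also differed in markers of neighbouring tissue, and what tissue they held was not tested. Results are given with these 3 libraries. Where a call turns on them it is also given without, but not every estimate is.

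The transgenes were the condition in which most complement genes differed. Averaged over Dp16 status and treatment, 6 of the 9 genes were higher in mice with the transgenes than in mice without them and none was lower. These were C1qa, C1qb, C1qc, C4b, C3ar1 and Itgam, by 0.50 to 1.32 on the log2 scale. Of all genes tested 1.59% passed in this comparison (278 higher and 1 lower), and the median log2 change of the 9 was 0.78 against 0.002 over all genes. The 9 genes were chosen with earlier results of these data known, so this contrast with all genes is not independent of the data. Tests are edgeR's quasi-likelihood test with Benjamini-Hochberg adjustment over all 17518 genes and a threshold of 0.05. The same 6 genes passed without the 3 libraries low in hippocampal markers.

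**Figure D1:**
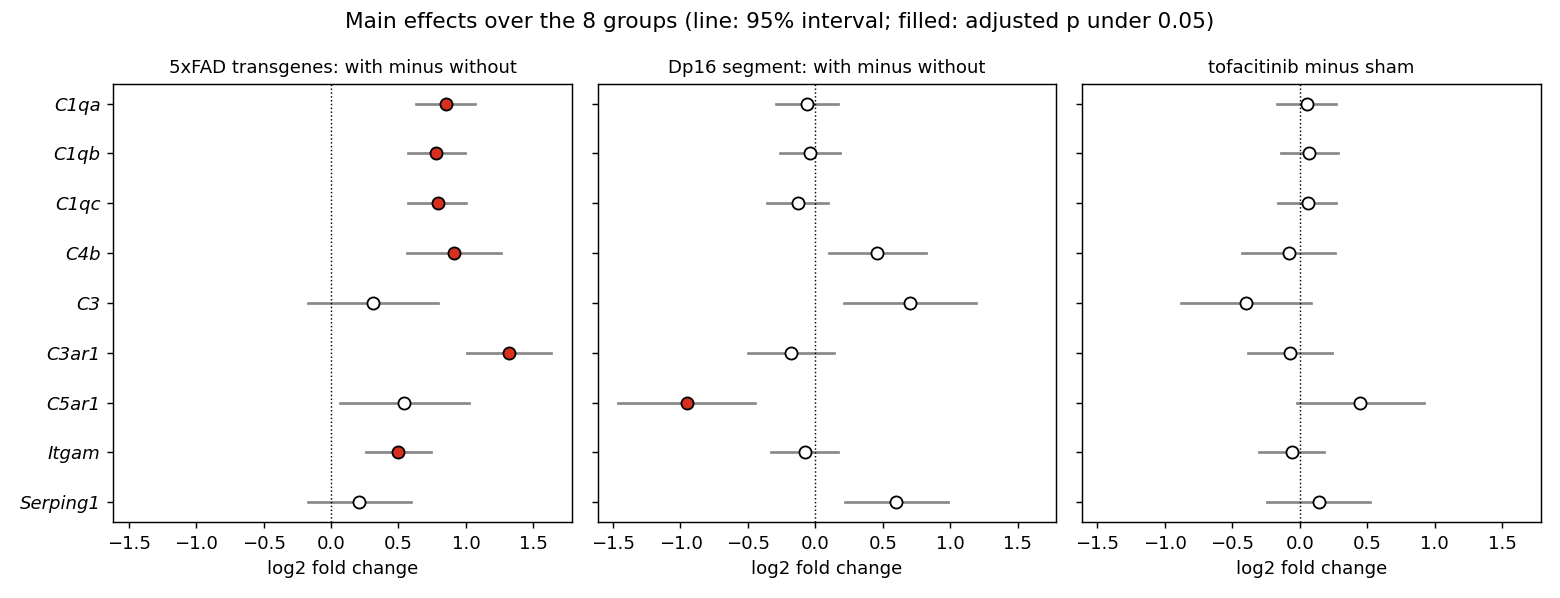
Log2 fold change (horizontal axis) of each complement gene (rows) for the 5xFAD transgenes (with minus without), the Dp16 segment (with minus without) and the drug (tofacitinib minus sham), each averaged over the other factors. Points are estimates from the 34 libraries, lines are 95% intervals, and filled points have an adjusted p under 0.05: C1qa, C1qb, C1qc, C4b, C3ar1 and Itgam for the transgenes, C5ar1 for the segment, and no gene for tofacitinib.

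C1qa, C1qb and C1qc encode the 3 chains of C1q, the recognition protein of the classical route. C1qa stood at 176, 262, 179 and 96.2 CPM in the 4 sham 5xFAD libraries, against 82.1, 80.1, 85.0, 74.4 and 71.4 CPM in the 5 sham WT libraries. With tofacitinib it stood at 183, 103, 223, 176 and 109 CPM in 5xFAD, against 77.5, 80.2, 89.1, 82.2 and 80.5 CPM in WT. Every 5xFAD library was above every WT library of its treatment, and library 4 among the sham 5xFAD libraries and libraries 2 and 6 among the tofacitinib ones were closest to WT.

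On the Dp16 background C1qa stood at 129, 162 and 88.1 CPM in the 3 sham 5xFAD-Dp16 libraries, against 100, 80.3 and 88.1 CPM in the 3 sham Dp16 libraries. In the tofacitinib arm it stood at 151, 166, 169 and 131 CPM in 5xFAD-Dp16, against 101, 85.4, 87.0, 87.6 and 90.5 CPM in Dp16. The tofacitinib groups did not overlap, while in the sham groups 5xFAD-Dp16 library 4, which was also low in hippocampal markers, lay within the Dp16 range. The order of the group means was 179 ± 67.8 CPM in sham 5xFAD (SD, n = 4), 159 ± 51.3 CPM in tofacitinib 5xFAD (n = 5), 154 ± 17.6 CPM in tofacitinib 5xFAD-Dp16 (n = 4) and 126 ± 36.9 CPM in sham 5xFAD-Dp16 (n = 3). The groups without transgenes followed within 78.6 to 90.2 CPM, and neighbours within each set of 4 differed by less than the larger of their SDs.

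Averaged over the other factors, C1qa was 1.81-fold higher with the transgenes (log2 fold change 0.85 ± 0.11 SE, adjusted p = 7.49e-06 by edgeR, 24th of all genes by p). Of the 16 libraries with transgenes, 14 were above the highest of the 18 without. C1qb changed by 0.78 ± 0.10 (adjusted p = 1.2e-05), with a range of 69.7 to 169 CPM with transgenes against 47.9 to 74.6 CPM without and 12 of 16 libraries above the highest without. C1qc changed by 0.79 ± 0.11 (adjusted p = 1.63e-05), with a range of 57.0 to 160 CPM against 49.3 to 67.5 CPM and 14 of 16 above. The intervals of the 3 chains lay between 0.57 and 1.07 on the log2 scale and overlapped.

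The chains kept close to a fixed ratio. In RPKM, C1qa over C1qb was 1.43 ± 0.101 (SD) over the 34 libraries and C1qc over C1qb was 0.826 ± 0.0589, while the level of C1qa itself spanned 66.9 to 240 RPKM. By group, C1qa over C1qb ran from 1.36 ± 0.116 in tofacitinib WT to 1.51 ± 0.0464 in tofacitinib 5xFAD. The sham WT group had the highest mean of C1qc over C1qb, at 0.902 ± 0.0707 against 0.779 to 0.864 in the other 7 groups. This ratio is a description and was not tested.

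**Figure D2:**
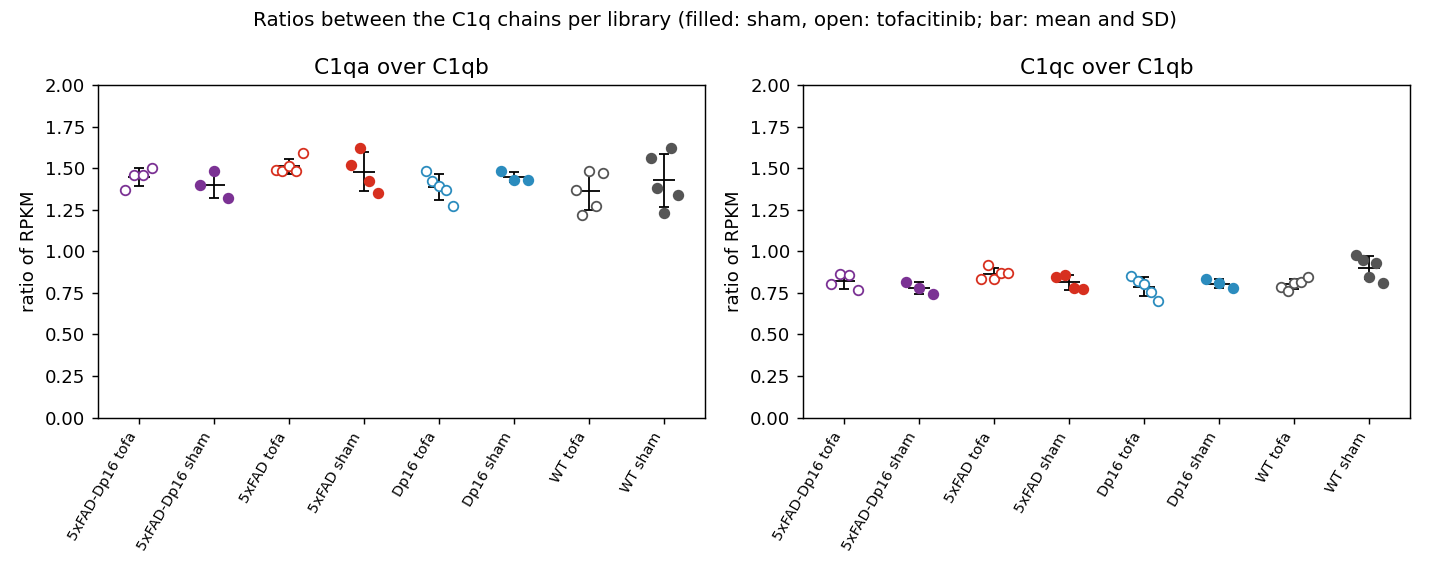
Ratio of RPKM values (vertical axis, no unit) of C1qa to C1qb and of C1qc to C1qb in each library, by group (horizontal axis), with the mean and SD. The points of all groups lie between 1.22 and 1.62 for C1qa over C1qb and between 0.702 and 0.977 for C1qc over C1qb.

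C4b is the mouse form of C4, whose fragment binds covalently to targets and carries the cascade on to C3. It stood at 76.0, 104, 70.8 and 41.5 CPM in sham 5xFAD, against 23.1, 32.0, 34.6, 26.2 and 24.3 CPM in sham WT. With tofacitinib it stood at 68.7, 27.8, 91.3, 67.3 and 39.5 CPM in 5xFAD, against 31.1, 35.0, 8.78, 30.7 and 28.1 CPM in WT. The sham groups did not overlap, and in the tofacitinib groups 5xFAD library 2 lay within the WT range and WT library 3 lay far below the rest, both of them low in hippocampal markers.

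In the Dp16 background C4b stood at 63.2, 82.0 and 44.4 CPM in sham 5xFAD-Dp16, against 70.4, 49.5 and 46.2 CPM in sham Dp16. Under tofacitinib its level stood at 52.4, 110, 94.9 and 68.3 CPM in 5xFAD-Dp16, against 52.3, 38.6, 40.6, 44.5 and 42.2 CPM in Dp16. The sham groups overlapped and the tofacitinib groups did not, although the lowest 5xFAD-Dp16 library there lay next to the highest Dp16 library. Averaged over the other factors C4b was 1.88-fold higher with the transgenes (log2 fold change 0.91 ± 0.17 SE, adjusted p = 0.00188 by edgeR), and 7 of 16 libraries were above the highest without.

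C3 encodes the central protein of all complement routes. It stood at 4.50, 3.73, 1.15 and 4.07 CPM in sham 5xFAD, against 0.480, 5.00, 1.76, 2.03 and 1.25 CPM in sham WT. With tofacitinib it stood at 2.46, 1.74, 1.74, 2.35 and 1.93 CPM in 5xFAD, against 2.19, 1.48, 0.206, 2.85 and 2.23 CPM in WT. These groups overlapped, and sham WT held both one of the lowest values of the gene and one of 5.00 CPM, above every 5xFAD library. For the transgenes the log2 fold change of C3 was 0.31 (95% interval -0.17 to 0.79, adjusted p = 0.673 by edgeR), and 0 of 16 libraries with transgenes were above the highest without.

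C3ar1 and C5ar1 encode the receptors for the small fragments C3a and C5a. C3ar1 stood at 8.11, 10.5, 6.63 and 2.88 CPM in sham 5xFAD, against 2.93, 2.30, 2.26, 2.52 and 1.56 CPM in sham WT. Among tofacitinib-dosed mice it stood at 7.95, 5.33, 9.04, 4.91 and 4.23 CPM in 5xFAD, against 2.49, 1.79, 4.05, 2.60 and 2.34 CPM in WT. The tofacitinib groups did not overlap, and in the sham groups 5xFAD library 4 lay just below the highest WT library.

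In the Dp16 background C3ar1 stood at 7.31, 7.57 and 3.67 CPM in sham 5xFAD-Dp16, against 3.29, 1.77 and 2.47 CPM in sham Dp16. With tofacitinib it stood at 5.42, 5.41, 5.86 and 3.89 CPM in 5xFAD-Dp16, against 2.50, 2.57, 2.44, 2.27 and 2.07 CPM in Dp16. Neither pair of groups overlapped. Averaged over the other factors C3ar1 was 2.49-fold higher with the transgenes (log2 fold change 1.32 ± 0.15 SE, adjusted p = 1.2e-06 by edgeR), the largest estimate among the 9 genes, and 13 of 16 libraries were above the highest without.

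C5ar1 ranged from 0.353 to 3.97 CPM with transgenes (median 1.61) and from 0.0587 to 1.90 CPM without them (median 1.23), so the libraries overlapped widely and 6 of 16 were above the highest without. Its log2 fold change of 0.54 did not pass (95% interval 0.07 to 1.02, unadjusted p = 0.0272, adjusted p = 0.39 by edgeR). Itgam encodes the CD11b chain of complement receptor 3 and is also a general marker of myeloid cells. It stood between 9.24 and 23.7 CPM with transgenes (median 17.2) and between 8.36 and 14.7 CPM without (median 11.8), with 10 of 16 libraries above the highest without. It was 1.41-fold higher with the transgenes (log2 fold change 0.50 ± 0.12 SE, adjusted p = 0.0165 by edgeR), a call that ended when sham Dp16 library 3 or sham 5xFAD-Dp16 library 2 was left out (highest adjusted p = 0.0559). Serping1 encodes C1 inhibitor, which blocks the proteases bound to C1q. Its 6.06 to 21.7 CPM with transgenes covered nearly the same span as the 3.63 to 16.0 CPM without, and its log2 fold change of 0.21 did not pass (95% interval -0.17 to 0.59, adjusted p = 0.724 by edgeR).

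**Figure D3:**
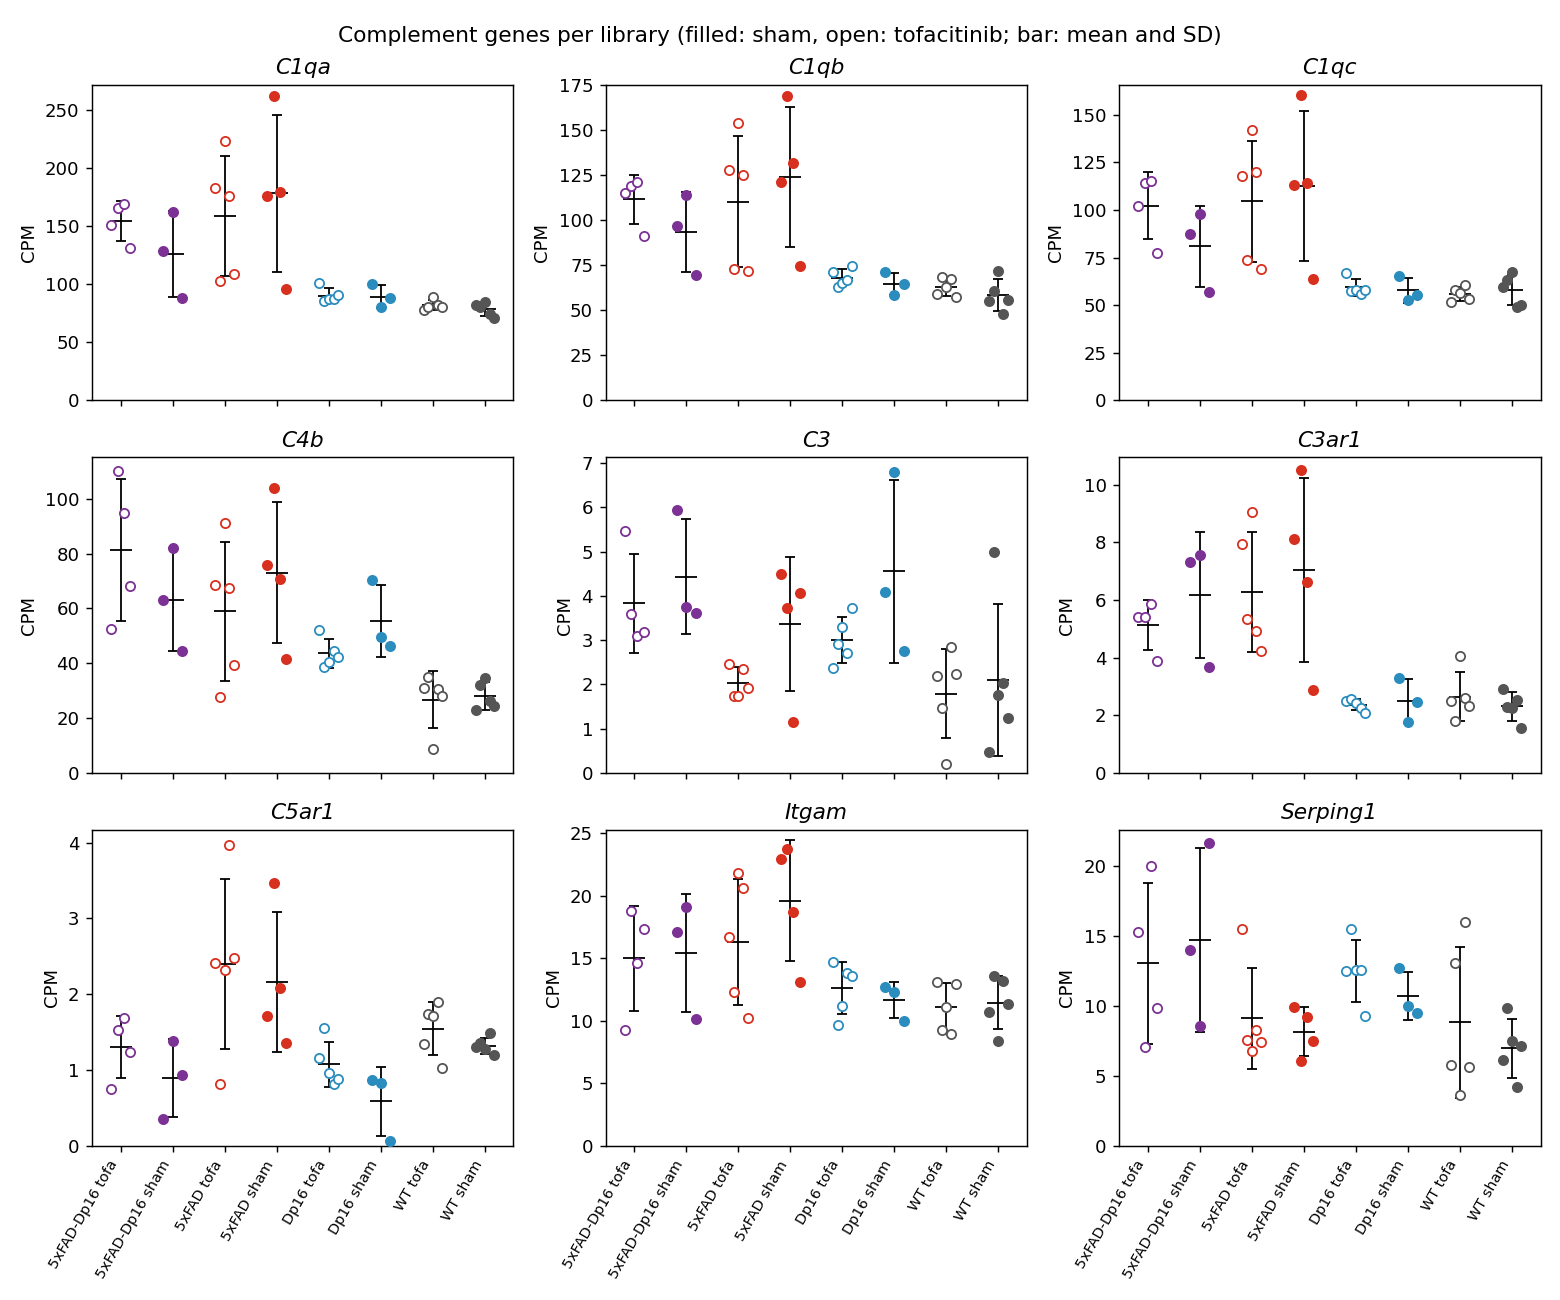
CPM (vertical axis, from 0, a scale per gene) of the 9 complement genes in each library, by group (horizontal axis), with filled points for sham, open points for tofacitinib ("tofa") and bars for the mean and SD. C1qa, C1qb, C1qc and C3ar1 are higher in most libraries of the 4 groups with transgenes, on the left, than in the 4 groups without. For each of the 9 genes the range over all libraries with transgenes overlaps the range without.

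The separate comparisons differed in how many genes passed. In sham 5xFAD against sham WT, where 0.445% of all genes passed, 5 of the 9 were higher: C1qa by 1.19 ± 0.20 on the log2 scale (adjusted p = 0.00342), C1qb by 1.09 ± 0.20 (0.0049), C1qc by 0.97 ± 0.20 (0.0133), C3ar1 by 1.63 ± 0.29 (0.00368) and C4b by 1.40 ± 0.33 (0.0474), all by edgeR. None of these 5 passed without sham 5xFAD library 2, which had the highest level of each within its group. Leaving out sham WT library 4 or library 5 left 3, and a fit of these groups alone called none of the 9 (smallest adjusted p = 0.0783, for C3ar1). In tofacitinib 5xFAD against tofacitinib WT, where 0.32% of all genes passed, C1qa (0.96 ± 0.19, adjusted p = 0.0213), C1qc (0.90 ± 0.19, 0.0302) and C3ar1 (1.23 ± 0.27, 0.0395) were higher by edgeR. C1qb at 0.81 ± 0.19 just missed (adjusted p = 0.0514), and C4b at 1.15 ± 0.31 did not pass (0.167). Leaving out any 1 of 8 of the 10 compared libraries left 0 or 1 of these calls, while 5 genes passed without tofacitinib 5xFAD library 2. A fit of these groups alone called none of the 9 (smallest adjusted p = 0.267, for C1qa), while DESeq2 called 5. Over all genes the alternative settings called 0 to 416 in this comparison.

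On the Dp16 background no complement gene passed in the fit of all libraries. In sham 5xFAD-Dp16 against sham Dp16, 0% of all genes passed by edgeR (1275 had an unadjusted p under 0.05, and DESeq2 called 16), and C3ar1 had the smallest p of the 9, with a log2 fold change of 1.28 (95% interval 0.55 to 2.00, unadjusted p = 0.00113, adjusted p = 0.636 by edgeR). C1qa there was at 0.49 (-0.02 to 1.00). In tofacitinib 5xFAD-Dp16 against tofacitinib Dp16, 0.0285% of all genes passed, and the intervals of C1qa (0.36 to 1.19), C1qb (0.31 to 1.11), C1qc (0.38 to 1.20), C4b (0.25 to 1.57) and C3ar1 (0.55 to 1.72) lay above 0 with adjusted p of at least 0.268 by edgeR. DESeq2 also made no call among the 9 in either comparison. A fit on those tofacitinib groups alone called 4, namely C1qa, C1qb, C1qc and C3ar1. Without the filter on low counts edgeR called the same 4 in the sham comparison and these with C4b in the tofacitinib comparison. Calls over all genes moved as well under the alternative settings described at the end. They ranged from 0 to 511 in the sham comparison and from 5 to 117 in the tofacitinib comparison.

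Against WT, the mice with both alterations gave 1 call in the sham arm and 4 in the tofacitinib arm. C3ar1 was higher in sham 5xFAD-Dp16 than in sham WT by 1.35 ± 0.31 on the log2 scale (adjusted p = 0.0245 by edgeR, with 0.959% of all genes called). DESeq2, and edgeR without the 3 libraries low in hippocampal markers, also called C4b there (adjusted p = 0.0407 and 0.0468). The call ended when either of sham 5xFAD-Dp16 libraries 1 and 2 or either of sham WT libraries 2 and 5 was left out, and in a fit of these groups alone, while 6 genes passed without the filter. In tofacitinib 5xFAD-Dp16 against tofacitinib WT, where 0.537% of all genes passed, C4b was higher by 1.60 ± 0.33 (adjusted p = 0.0119 by edgeR), C1qa by 0.91 ± 0.20 (0.0278), C1qc by 0.85 ± 0.20 (0.0415) and C1qb by 0.82 ± 0.20 (0.0470). These comparisons share their WT libraries with those of 5xFAD. A fit of these groups alone called the C1q chains and not C4b. None of the 4 remained when tofacitinib 5xFAD-Dp16 library 2 or library 3 was left out. Leaving out any 1 of the tofacitinib WT libraries, or tofacitinib 5xFAD-Dp16 library 1, left 1. Of all 34 fits that left out 1 library, 23 gave clearly fewer calls than the full fit. Some of these left out a library outside the compared groups, such as sham Dp16 library 1.

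Whether the transgene difference itself depended on the Dp16 segment was tested as an interaction, in which 0% of all genes passed (851 with an unadjusted p under 0.05 by edgeR, and 2 calls by DESeq2). C4b had an interaction of -0.73 on the log2 scale (95% interval -1.42 to -0.03, unadjusted p = 0.0411, adjusted p = 0.942) and C1qa one of -0.44 (-0.88 to 0.00, unadjusted p = 0.0504, adjusted p = 0.942). Of the 9 genes 8 had a negative estimate, with a median of -0.31, and none passed by edgeR or DESeq2. Over all genes 49.9% of estimates were above 0. The C1q chains followed one another from library to library (r of 0.95 to 0.97), so the 9 signs are not independent. Without the filter on low counts, edgeR called C4b (-0.73, adjusted p = 2.48e-06) and C1qa (-0.44, adjusted p = 0.0321) at the same estimates, so whether these genes pass depends on that filter. These adjusted p-values are below the unadjusted ones of the main fit, so the fitted spread differed, not the estimate. The fit without the filter took in every gene with at least 1 count in total. Its calls are not read as support. Calls over all genes also moved under the alternative settings, from 0 to 247. The interaction of transgenes with tofacitinib likewise gave 0% of all genes (324 with an unadjusted p under 0.05 by edgeR, and 1 call by DESeq2) and 0 of the 9, with estimates between -0.31 and 0.24.

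**Figure D4:**
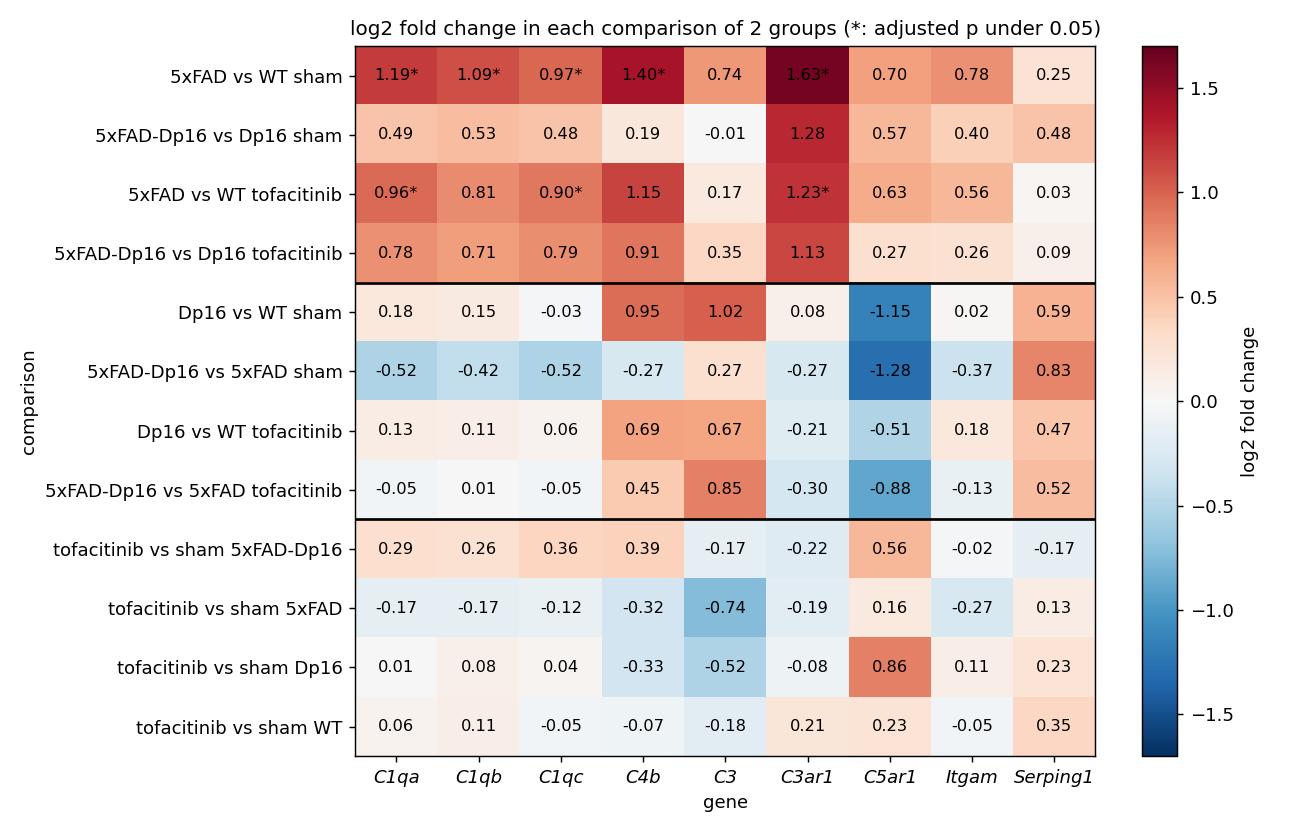
Log2 fold change (colour and number) of the 9 complement genes (columns) in the 12 comparisons of 2 groups that differ in 1 factor (rows: transgenes at the top, Dp16 segment in the middle, tofacitinib at the bottom), with an asterisk for an adjusted p under 0.05. The asterisks are confined to the 5xFAD against WT rows, with 5 under sham and 3 under tofacitinib.

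Carrying the Dp16 segment was accompanied by 1 call among the 9 genes. Averaged over transgenes and treatment, C5ar1 was lower with the segment, at 0.516-fold (log2 fold change -0.95, 95% interval -1.46 to -0.45, adjusted p = 0.041 by edgeR), in a comparison where 1.38% of all genes passed (158 higher and 84 lower). In sham mice C5ar1 stood at 0.862, 0.828 and 0.0587 CPM in Dp16, against 1.30, 1.35, 1.27, 1.48 and 1.19 CPM in WT, and at 0.353, 1.38 and 0.932 CPM in 5xFAD-Dp16, against 1.71, 3.47, 2.08 and 1.36 CPM in 5xFAD. In the tofacitinib arm it stood at 1.16, 1.55, 0.956, 0.812 and 0.880 CPM in Dp16, against 1.34, 1.73, 1.71, 1.90 and 1.03 CPM in WT, and at 0.743, 1.53, 1.68 and 1.24 CPM in 5xFAD-Dp16, against 2.41, 0.811, 2.32, 3.97 and 2.47 CPM in 5xFAD. Only sham Dp16 and sham WT did not overlap, and the lowest value is 1 count in a library. The call ended in 17 of the 34 fits that left out a library, with adjusted p from 0.0101 to 0.0853. DESeq2 gave C5ar1 an adjusted p of 0.00422 and also called Serping1, which is described next.

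C3, C4b and Serping1 had higher averaged levels with the segment but did not pass. Averaged over transgenes and treatment, their log2 fold changes were 0.70 (95% interval 0.21 to 1.19, adjusted p = 0.163) for C3, 0.46 (0.10 to 0.82, 0.236) for C4b and 0.60 (0.22 to 0.98, 0.11) for Serping1, by edgeR. In sham mice C3 stood at 4.10, 6.80 and 2.76 CPM in Dp16 (sham WT ranged from 0.480 to 5.00 CPM), and at 5.95, 3.75 and 3.62 CPM in 5xFAD-Dp16 (sham 5xFAD ranged from 1.15 to 4.50 CPM). Both sham pairs overlapped. With tofacitinib C3 stood at 5.47, 3.59, 3.09 and 3.18 CPM in 5xFAD-Dp16, against 2.46, 1.74, 1.74, 2.35 and 1.93 CPM in 5xFAD, and at 2.37, 2.91, 3.30, 2.71 and 3.73 CPM in Dp16, against 2.19, 1.48, 0.206, 2.85 and 2.23 CPM in WT. Every tofacitinib 5xFAD-Dp16 library was above every tofacitinib 5xFAD library (log2 fold change 0.85, 95% interval -0.08 to 1.77, adjusted p = 0.999 by edgeR), while Dp16 and WT overlapped. Without the filter on low counts edgeR called C3, C4b and Serping1 for the averaged segment (adjusted p = 0.0034, 4.39e-10 and 4.28e-07). As for the interaction, these calls depend on the filter and are not read as support. Over all genes the alternative settings called 181 to 705 for the averaged segment. The summed level of 6 markers of ependymal cells was 42.4 to 60.2 CPM in sham Dp16, against 11.3 to 36.4 CPM in sham WT. In sham 5xFAD-Dp16 it was 22.1 to 47.5 CPM, against 17.6 to 57.9 CPM in sham 5xFAD. With tofacitinib it was 35.6 to 49.9 CPM in Dp16 (WT 15.0 to 59.0 CPM). In tofacitinib 5xFAD-Dp16 it was 28.5 to 58.6 CPM (5xFAD 15.9 to 50.3 CPM). The part of these markers in the level of C3 was not tested.

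Serping1 stood at 14, 8.56 and 21.7 CPM in sham 5xFAD-Dp16, against 9.92, 6.06, 9.23 and 7.46 CPM in sham 5xFAD, and at 12.7, 9.99 and 9.51 CPM in sham Dp16, against 6.14, 9.89, 7.48, 4.16 and 7.13 CPM in sham WT. With tofacitinib it stood at 15.3, 7.08, 20 and 9.84 CPM in 5xFAD-Dp16, against 15.5, 7.58, 6.78, 8.30 and 7.45 CPM in 5xFAD, and at 12.5, 15.5, 12.6, 12.6 and 9.26 CPM in Dp16, against 5.77, 13.1, 3.63, 16.0 and 5.60 CPM in WT. Each of the 4 pairs overlapped. DESeq2 gave Serping1 0.61 on the log2 scale (adjusted p = 0.0493), while without the 3 libraries low in hippocampal markers the estimate was 0.40 (adjusted p = 0.332 by edgeR). The C1q chains, C3ar1 and Itgam had estimates between -0.18 and -0.04, with intervals from -0.50 to 0.19.

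In the separate comparisons of the segment none of the 9 passed, by edgeR with the filter or by DESeq2, while without the filter edgeR called 1, 4, 1 and 1 in the order given next. These were sham Dp16 against sham WT (0.308% of all genes called), sham 5xFAD-Dp16 against sham 5xFAD (0.268%), tofacitinib Dp16 against tofacitinib WT (0.268%) and tofacitinib 5xFAD-Dp16 against tofacitinib 5xFAD (0.217%). Over all genes the alternative settings called 45 to 237, 0 to 1054, 44 to 214 and 0 to 273 in that order. An unadjusted p under 0.05 by edgeR was reached by 3, 4, 1 and 0 of the 9 in that order. Of all 17518 genes, 1277, 2006, 852 and 866 reached it. In sham 5xFAD-Dp16 against sham 5xFAD, C1qa had a log2 fold change of -0.52 (95% interval -1.01 to -0.02, adjusted p = 0.415 by edgeR), and the 15 microglial markers described below had a median of -0.50 there, with 11 at an unadjusted p under 0.05 and none called. Sham 5xFAD-Dp16 library 4, low in hippocampal markers, had 88.1 CPM of C1qa, against 129 and 162 CPM in libraries 1 and 2. The summed level of those microglial markers was 509 CPM in library 4, against 792 and 878 CPM. These estimates include that library. The largest estimate of C4b was in sham Dp16 against sham WT, at 0.95 on the log2 scale (95% interval 0.22 to 1.67, unadjusted p = 0.0122, adjusted p = 0.468 by edgeR). The sham Dp16 libraries had 70.4, 49.5 and 46.2 CPM, all above the 34.6 CPM of the highest sham WT library. A fit on these groups alone gave C4b an adjusted p of 0.0373 by edgeR. In sham 5xFAD-Dp16 the mean of C4b was lower than in sham 5xFAD (63.2 against 73.2 CPM). With tofacitinib it was higher with the segment, both with and without transgenes.

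No complement gene differed between tofacitinib and sham by edgeR or DESeq2, and none of the 9 had an unadjusted p under 0.05 in any of the comparisons of the drug. Averaged over genotypes 0% of all genes passed by edgeR (1354 had an unadjusted p under 0.05, and DESeq2 called 5). C1qa changed by 0.05 on the log2 scale (95% interval -0.17 to 0.27), C1qb by 0.07 (-0.14 to 0.28), C1qc by 0.06 (-0.16 to 0.27), C4b by -0.08 (-0.43 to 0.26), C3ar1 by -0.07 (-0.38 to 0.24) and Itgam by -0.06 (-0.30 to 0.18). These intervals leave room for differences of up to 0.43 in size. The intervals of C3 (-0.88 to 0.08), C5ar1 (-0.02 to 0.92) and Serping1 (-0.24 to 0.52) were wider.

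By genotype, the share of all genes called between tofacitinib and sham was 0% in 5xFAD-Dp16, 0% in 5xFAD, 0.00571% in Dp16 and 0% in WT by edgeR. Where it was 0%, 1307 genes in 5xFAD-Dp16, 1017 in 5xFAD and 491 in WT had an unadjusted p under 0.05, and DESeq2 called 8, 3 and 5 in that order. C1qa had log2 fold changes of 0.29 (95% interval -0.19 to 0.78) in 5xFAD-Dp16, -0.17 (-0.59 to 0.24) in 5xFAD, 0.01 (-0.44 to 0.47) in Dp16 and 0.06 (-0.34 to 0.46) in WT. C4b had 0.39 (-0.37 to 1.16) in 5xFAD-Dp16, -0.32 (-0.98 to 0.34) in 5xFAD, -0.33 (-1.05 to 0.39) in Dp16 and -0.07 (-0.71 to 0.57) in WT. C3 stood at 2.46, 1.74, 1.74, 2.35 and 1.93 CPM in tofacitinib 5xFAD, against 4.50, 3.73, 1.15 and 4.07 CPM in sham 5xFAD, with a log2 fold change of -0.74 (-1.67 to 0.18, adjusted p = 0.788 by edgeR). There 3 of the 4 sham libraries were above every tofacitinib library and the fourth was below them all.

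C1q moved with the markers of microglia, and in tissue RNA more cells of a type cannot be told apart from more RNA per cell. Of 15 listed microglial markers, which do not include the complement genes, 12 were higher with the transgenes (median log2 change 0.50), and their summed level was 509 to 1360 CPM with transgenes against 521 to 641 CPM without. Trem2, a microglial receptor for lipids, changed by 1.52 ± 0.16 (adjusted p = 6.68e-07 by edgeR). Per 100 CPM of the microglial sum, the summed C1q chains were at 42.2 ± 3.72 CPM with transgenes (SD, n = 16) and 35.9 ± 3.37 CPM without (n = 18), ranges of 35.3 to 50.1 and 30.1 to 40.4 that overlap. The part of microglial number in the C1q difference was not tested.

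The 16 libraries with transgenes were not uniform. Sham 5xFAD library 4, tofacitinib 5xFAD libraries 2 and 6 and sham 5xFAD-Dp16 library 4 had summed C1q of 234, 250, 250 and 215 CPM, near the 172 to 239 CPM of the libraries without transgenes. The same 4 had the lowest microglial sums of the 16, at 664, 633, 652 and 509 CPM. Their Trem2 was at 19.2, 18.2, 22.5 and 13.2 CPM, the lowest 4 of the 16. Thy1 was at 1930, 967, 1790 and 1250 CPM there, against 1730 to 2880 CPM in the other 12.

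**Figure D5:**
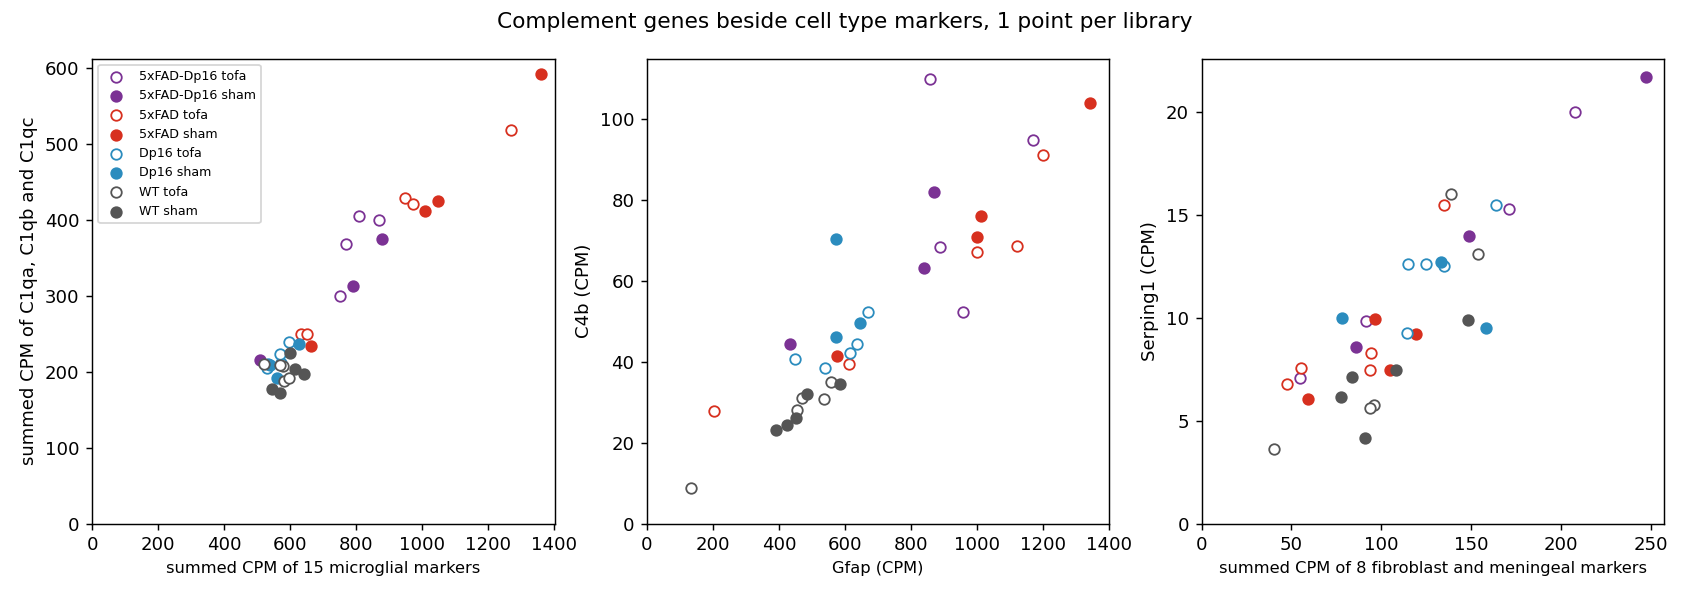
Summed CPM of the C1q chains against summed CPM of 15 microglial markers (left), C4b against Gfap (middle) and Serping1 against summed CPM of 8 fibroblast and meningeal markers (right), 1 point per library, coloured by genotype with filled points for sham and open points for tofacitinib. C1q and the microglial sum are highest together in a sham 5xFAD library (591 and 1360 CPM), C4b and Gfap are lowest together in a tofacitinib WT library (8.78 and 133 CPM), and Serping1 and the fibroblast sum are highest together in a sham 5xFAD-Dp16 library (21.7 and 247 CPM).

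C4b moved with an astrocyte gene. Gfap, the filament protein of reactive astrocytes, was higher with the transgenes by 0.75 ± 0.19 on the log2 scale (adjusted p = 0.0351 by edgeR) and was the 1 of 10 astrocyte markers that passed. Gfap was at 202 to 1340 CPM with transgenes and 133 to 668 CPM without. Per 100 CPM of Gfap, C4b was at 8.23 ± 2.30 CPM with transgenes and 7.08 ± 1.59 CPM without (SD, n = 16 and 18). This ratio was 5.74 to 6.59 in sham WT and 7.68 to 12.3 in sham Dp16. In sham 5xFAD it was 7.05 to 7.82, and in sham 5xFAD-Dp16 7.54 to 10.3. With tofacitinib it was 5.75 to 6.65 in WT and 6.87 to 9.06 in Dp16. In tofacitinib 5xFAD it was 6.12 to 13.8, and in tofacitinib 5xFAD-Dp16 5.47 to 12.8. Differences in this ratio were not tested. In WT tofacitinib library 3, with the lowest C4b at 8.78 CPM, Gfap was also the lowest at 133 CPM, and the ratio of 6.62 lay within the 5.75 to 6.65 of that group.

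Serping1 moved with markers of fibroblasts and meninges. All 8 listed markers had estimates above 0 for the Dp16 segment (median log2 change 0.53, 5 with an unadjusted p under 0.05, none called by edgeR). For the segment 2241 of all 17518 genes had an unadjusted p under 0.05, and 49.1% had an estimate above 0. The summed level of the 8 markers was 55.0 to 208 CPM in tofacitinib 5xFAD-Dp16, against 47.4 to 135 CPM in tofacitinib 5xFAD. It was 85.7 to 247 CPM in sham 5xFAD-Dp16, against 59.4 to 119 CPM in sham 5xFAD. It was 114 to 164 CPM in tofacitinib Dp16 and 77.9 to 158 CPM in sham Dp16, against 40.3 to 154 CPM in tofacitinib WT and 77.8 to 148 CPM in sham WT. The part of these markers in the level of Serping1 was not tested. Neutrophil markers summed to at most 3.29 CPM and border macrophage and monocyte markers to at most 20.7 CPM in any library. For the transgenes 0 of the 3 and 7 tested members of those lists passed. None of them had an unadjusted p under 0.05, against 1848 of all genes.

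Genes whose level followed a complement gene most closely from library to library were ranked over 13320 genes by the correlation of log2 CPM after removing each group's mean, over the 34 libraries, which share dissection and cell composition. For C1qa they included Mpeg1 (r = 0.93), Ctss (0.93), Trem2 (0.92) and Ly86 (0.92). For C4b they were Gfap (0.88), Serpina3n (0.86), Cotl1 (0.86), Icosl (0.85) and Klhl6 (0.85). For C3 they were Glp1r (0.83), Zfp41 (0.77), Cfap43 (0.75), Dnah2 (0.75) and Cnmd (0.73), and for Serping1 they were Mgp (0.86), Efemp1 (0.85), Bgn (0.85), Islr (0.85) and H2-Ab1 (0.84).

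Among the complement genes themselves the C1q chains followed one another at r of 0.95 to 0.97. C1qa and C3ar1 had r = 0.82, C1qa and C4b 0.65, and C1qa and Itgam 0.65. C3 and Serping1 stood apart from C1qa, at -0.08 and -0.09, and Serping1 and Itgam had -0.39. These coefficients describe the libraries and carry no test.

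Beyond the 9 genes, 53 other complement genes were listed by role and 35 passed the filter. For the transgenes, where 1.59% of all genes passed, 2 of the 35 were higher and none lower, with a median log2 change of 0.08. Both encode chains of complement receptors: Itgax (CD11c, of complement receptor 4) changed by 3.27 ± 0.42 (adjusted p = 9.53e-06, means of 4.47 CPM with and 0.443 CPM without transgenes) and Itgb2 (CD18, the partner of CD11b and CD11c) by 0.92 ± 0.14 (adjusted p = 5.02e-05, 16.6 and 8.82 CPM), by edgeR. None of 7 other initiators, 1 gene of the alternative route, 2 terminal components and 17 regulators passed. In sham 5xFAD against sham WT the same 2 genes passed, Itgax at 4.11 and Itgb2 at 1.33 on the log2 scale.

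For the Dp16 segment 1 of the 35 passed, a share near the 1.38% of all genes that did. Clu, which encodes the secreted chaperone clusterin, an inhibitor of the terminal complex, was lower with the segment by -0.23 ± 0.05 on the log2 scale (adjusted p = 0.0142 by edgeR), with means of 1240 CPM with and 1440 CPM without. For tofacitinib 0 of the 35 passed by edgeR (1 with an unadjusted p under 0.05, Cfp at 0.78, adjusted p = 0.618). Of all genes 1354 had an unadjusted p under 0.05 there.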

How the data were processed

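The deposited files hold gene counts and RPKM values for each of the 34 libraries. TRIzol extraction was followed by poly(A) selection, strand-specific library preparation and paired-end sequencing, per the labels' protocols. The tools listed in the submitters' processing notes, without roles, are HTSeq 0.6.1, HISAT2 2.1.0, SAMtools 1.5, FastQC 0.11.5 and bcl2fastq, and the build is GRCm38. The strand setting and the treatment of reads that match several genes are not given in the sources used here. Counts as deposited by the authors were tested, and the authors' RPKM values were used to set levels of different genes side by side.

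The 9 genes, the marker lists and the other complement genes were chosen with earlier results of these data known. Genes were filtered with filterByExpr by group, and 17518 of 55385 were fitted together in edgeR 4.0.16 (R 4.3.3, limma 3.58.1) with TMM scaling, robust quasi-likelihood dispersion, a mean for each of 8 groups and a term for sex (25 residual degrees of freedom). Averaged effects are means of the 4 differences between matched groups. P-values were adjusted by Benjamini-Hochberg over all genes tested, with a threshold of 0.05, and the scripts were tested on simulated data. Intervals are 95% intervals of the fit. Log2 CPM values for correlations used a prior count of 2, over genes with a mean of at least 1 CPM. All 9 genes are named in every comparison. Other complement genes are named where they passed in an averaged effect or in sham 5xFAD against sham WT, and like genes are the 5 highest correlations for C1qa, C4b, C3 and Serping1, of which 1 for C1qa is not reported here. C4a, Cfp and the marker genes given with values were named after their values were seen.

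Alternatives were DESeq2 size factors in edgeR, no filter, a block for the replicate number, no term for sex, DESeq2 1.42.0, a fit of the compared groups alone, leaving out the 3 libraries low in hippocampal markers, and leaving out each library in turn. The series' design text names more libraries in sham 5xFAD-Dp16 and tofacitinib 5xFAD, and those were not analysed here. Promoter windows come from RefSeq.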

Additional observations from a re-analysis of the deposited data

Results flagged for a closer look

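Within the groups of 4 or 5 libraries, 3 of 54 combinations of gene and group held a library far from the others by Dixon's criterion, and chance alone marks about 1 in 20. C1qc in tofacitinib Dp16 library 1 was at 67.1 CPM, against 56.1 to 58.1 CPM in the other 4 libraries. C4b in tofacitinib WT library 3 was at 8.78 CPM, against 28.1 to 35.0 CPM in the other 4, and this library was also low in hippocampal markers and in Gfap (133 CPM). Serping1 in tofacitinib 5xFAD library 1 was at 15.5 CPM, against 6.78 to 8.30 CPM in the other 4, and its fibroblast and meningeal marker sum of 135 CPM was the highest of that group.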

How the results depend on the processing

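No estimate changed sign where it was called, and every comparison of tofacitinib with sham gave 0 calls among the 9 genes under every alternative. For the transgenes averaged over the other factors, 6 genes passed under every alternative except leaving out 1 library, which gave 5 to 6. Without the filter on low counts, 4 genes passed in sham 5xFAD-Dp16 against sham Dp16, 6 in tofacitinib 5xFAD against tofacitinib WT, 5 in tofacitinib 5xFAD-Dp16 against tofacitinib Dp16, 1 in sham Dp16 against sham WT, 4 in sham 5xFAD-Dp16 against sham 5xFAD, 1 in tofacitinib Dp16 against tofacitinib WT, 1 in tofacitinib 5xFAD-Dp16 against tofacitinib 5xFAD, 6 in sham 5xFAD-Dp16 against sham WT, 4 for the averaged segment and 2 for the interaction of transgenes and segment. With the compared groups alone, 0 passed in sham and in tofacitinib 5xFAD against WT, 4 in tofacitinib 5xFAD-Dp16 against tofacitinib Dp16, 1 in sham Dp16 against sham WT and 0 in sham 5xFAD-Dp16 against sham WT. DESeq2 gave 5 in tofacitinib 5xFAD against tofacitinib WT, 2 in sham 5xFAD-Dp16 against sham WT and 2 for the segment. Without the 3 libraries low in hippocampal markers, 2 passed in sham 5xFAD-Dp16 against sham WT. The cause of these moves was not tested.

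Leaving out 1 library gave 0 to 5 calls in sham 5xFAD against sham WT, 0 to 5 in tofacitinib 5xFAD against tofacitinib WT, 0 to 1 in sham and 0 to 4 in tofacitinib 5xFAD-Dp16 against WT, and 0 to 1 for the segment. With the replicate block, 2 passed in sham 5xFAD against sham WT and 0 for the segment (C5ar1 adjusted p = 0.104). Libraries with the same number did not deviate together (median r 0.03 over 98 pairs, with 33 above 0.1, and -0.01 over 405 pairs with different numbers), so the numbers do not pair them. Low counts limit C3 and C5ar1.

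Counts over all genes also moved. In sham 5xFAD against sham WT, 78 genes passed, with 14 to 245 under the alternatives. In tofacitinib 5xFAD against tofacitinib WT there were 56, with 0 to 416. For 5xFAD-Dp16 against Dp16 there were 0 in sham, with 0 to 511, and 5 with tofacitinib, with 5 to 117. For 5xFAD-Dp16 against 5xFAD there were 47 in sham, with 0 to 1054, and 38 with tofacitinib, with 0 to 273. For Dp16 against WT there were 54 in sham, with 45 to 237, and 47 with tofacitinib, with 44 to 214. For 5xFAD-Dp16 against WT there were 168 in sham, with 0 to 1270, and 94 with tofacitinib, with 52 to 280. For the averaged transgenes 279 passed, with 218 to 884, for the segment 242, with 181 to 705, and for tofacitinib 0, with 0 to 91. The interaction of transgenes and segment gave 0, with 0 to 247.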
